A study of Mus musculus with 2 samples.

Results

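Bdnf, Ntf3, Ntrk2, Ntrk3, Sort1 and Sh2b1 are 6 of the 31053 gene rows counted in nuclei from the paraventricular nucleus of the hypothalamus (PVH) of mice. They were chosen by name: 2 neurotrophin ligands, 2 of their receptors, a sorting receptor and an adaptor. The nuclei came from 17 mice at 4 weeks of age and were enriched by sorting for GFP. All 17 mice carried Sim1-Cre and a GFP reporter of the nucleus, so that nuclei were collected from cells with a history of Sim1, a transcription factor of PVH neurons. The 7 mice of the first genotype (Sim1-Cre; Sun1-GFP) carried nothing more. The 4 mice of the second (Sim1-Cre; Sun-GFP; Otpfl/+) had 1 floxed copy of Otp, a homeobox transcription factor of neuroendocrine neurons, open to deletion in Sim1-Cre cells only. The 6 mice of the third (Sim1-Cre; Sun1-GFP; OtpQ153R/+) had 1 copy of the OtpQ153R allele. Nuclei of all mice ran as 1 gene-expression library, in which 3 hashtag rows named Ctrl, KD and Q153R tell pools apart. The individual mouse cannot be told from the data, and no label states which genotype received the tag named KD, which was matched to the floxed genotype by elimination. Pools are therefore called the nuclei labelled Ctrl, KD and Q153R.

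With 1 pool per tag there is no replicate of any condition and no p-value is given. Every interval below is a 95% interval for counting error alone, and mouse, dissection and sort cannot be told apart from the tag. Otp, the altered gene, was checked first. In neurons outside the GABAergic class its level was 49.98 CPM (UMIs per 1e6 UMIs, 45.7 to 54.5) in nuclei labelled Ctrl, 81.3 CPM (75.2 to 87.9) in nuclei labelled KD and 114 CPM (106 to 122) in nuclei labelled Q153R. Otp was thus higher, not lower, in the nuclei labelled KD, and any direction drawn between the pools stands beside that reading.

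Neurotrophins are secreted survival and plasticity factors that neurons make as longer precursors and release partly on activity. BDNF, the product of Bdnf, acts through the receptor tyrosine kinase TrkB, encoded by Ntrk2, and neurotrophin-3, the product of Ntf3, acts mainly through TrkC, encoded by Ntrk3. Sortilin, encoded by Sort1, sorts proBDNF in the secretory pathway and is a co-receptor for proneurotrophins, while Sh2b1 encodes an adaptor of receptor kinases that also serves leptin and insulin signalling. In the hypothalamus BDNF and TrkB are known for restraint of feeding and body weight, and loss of Bdnf, Ntrk2 or Sh2b1 leads to obesity in mice.

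Bdnf has several promoters, each with its own first exon, and a counting of whole genes cannot tell which one is used. RefSeq (GRCm38.p6) windows of 250 bases before a transcript start were held for Bdnf (7 windows), Ntf3 (2), Ntrk2 (1) and Sh2b1 (2). A search of both strands found the cAMP response element TGACGTCA in none of them. The closely related TGACGTGA, which contains the half-site TGACG, was present in 1 Bdnf window, where it reads TCACGTCA on the printed strand and begins 38 bases before the start. TGACGTGA occurs in 0.350% of 32851 such windows of the genome, TGACGTCA in 1.55% and TGACG in 17.8%. The Ntrk2 window, printed beside it because Ntrk2 was detected with activity genes in these nuclei, held neither element nor the half-site. Both are on the plus strand, chr2:109692186-109692435 for Bdnf and chr13:58806319-58806568 for Ntrk2, and capitals mark the element.
Bdnf window 3: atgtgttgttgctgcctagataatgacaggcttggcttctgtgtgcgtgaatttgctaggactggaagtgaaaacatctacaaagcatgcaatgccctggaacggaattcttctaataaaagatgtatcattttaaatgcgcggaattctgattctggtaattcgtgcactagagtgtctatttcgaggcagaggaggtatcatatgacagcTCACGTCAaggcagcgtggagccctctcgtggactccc
Ntrk2 window: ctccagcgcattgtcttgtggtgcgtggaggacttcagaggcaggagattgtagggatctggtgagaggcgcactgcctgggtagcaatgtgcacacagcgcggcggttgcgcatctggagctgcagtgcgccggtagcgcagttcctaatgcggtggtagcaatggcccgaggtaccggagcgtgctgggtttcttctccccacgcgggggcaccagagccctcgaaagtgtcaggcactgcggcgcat
A match is a run of letters and not a bound site, and a window without a match says nothing of the factor.

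After filters on genes (500 or more) and on mitochondrial UMIs (below 5%), 6157 barcodes were left, of which 4904 carried exactly 1 tag and were kept. A further 1124 (18.3%) carried 2 or 3 tags and had a median of 11267 UMIs, against 5252 in the kept nuclei (range 565 to 29974). Doublets within a pool cannot be seen by tags. The pools held 1966, 1347 and 1591 nuclei labelled Ctrl, KD and Q153R, with medians of 5344, 5941 and 4638 UMIs. By marker UMIs 98 nuclei were glial, and the remaining 4806 were called neurons, with no neuronal marker required. No barcode was shared because 1 library held them all. Neurons were put in a class by their own UMIs of Qrfpr or Sim2 (96 nuclei), Crh (181), Trh (301), Sst (218), Oxt (129), Avp (204), or Gad1, Gad2 or Slc32a1 (301, called GABAergic). No class was reached by 3274 neurons and several by 102. Sim1 lay between 385 and 956 CPM in the other groups of neurons but at 113 CPM in the GABAergic class, which is therefore not typical of Sim1 neurons. Nuclei with at least 3 Xist UMIs made up 64.95%, 80.9% and 47.8% of the pools labelled Ctrl, KD and Q153R, so the mix of sexes differed between them.

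Ntrk2 was the most abundant of the 6 transcripts. Over all neurons it reached 819 CPM (808 to 830), Ntrk3 505 CPM (497 to 514), Sort1 81.1 CPM, Bdnf 37.5 CPM (35.2 to 39.8) and Sh2b1 7.78 CPM. Ntf3 gave 8 UMIs in 8 of 4806 neurons. Long genes collect more intronic UMIs in nuclei, and per kilobase of gene span the levels were 2.50 CPM for Ntrk2, 1.05 for Sort1, 0.922 for Sh2b1, 0.899 for Ntrk3, 0.716 for Bdnf and 0.00444 for Ntf3. On that scale Ntrk2 stayed the highest and Ntrk3 moved next to Sh2b1 and Bdnf. Per kilobase of exon the order of the unscaled levels was kept. Ntrk2 was at 42.45 CPM, Ntrk3 at 16.75, Sort1 at 10.71, Bdnf at 6.03, Sh2b1 at 1.98 and Ntf3 at 0.170. The intron setting of the counts is not given, so the fitting scale is not known.

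Bdnf UMIs sat in few nuclei. Bdnf was found in 12.5% of neurons (599 of 4806), and the 5% of neurons with most Bdnf held 65.2% of its UMIs. That last share rises as a gene gets sparser, from 31.3% for Sort1 to 100% for Sh2b1. After thinning each nucleus to 2338 UMIs, which leaves out 445 neurons, 6.67% of 4361 neurons kept a Bdnf UMI (5.95 to 7.45), against 1 of 52 glial nuclei (1.92%, 0.0487 to 10.3). Of the thinned neurons 17 held 3 or more Bdnf UMIs and 56 held 2 or more, where an even Poisson spread gives 0.417 and 14.8. Ntrk2 was found in 70.7% of thinned neurons and in 57.7% of glial nuclei, Ntrk3 in 59.6% and 36.5%, Sort1 in 16.6% and 13.5%, and Sh2b1 in 2.34% and 1.92%. For Sort1 and Sh2b1 the glial interval (5.59 to 25.8% and 0.0487 to 10.3%) holds the neuronal share. The same was true of Bdnf (0.0487 to 10.3%) and of Ntrk2 (43.2 to 71.27%). By this comparison the shares of Bdnf, Ntrk2, Sort1 and Sh2b1 are not distinguished from a share common to all nuclei, free RNA included. The levels in all 98 glial nuclei did differ from those of neurons for Bdnf, at 0.0974 times (0.00246 to 0.544, on 1 UMI). They also differed for Ntrk2, at 1.79 times (1.62 to 1.98). For Sort1 and Sh2b1 the interval of this ratio held 1. The neuronal share of Ntrk3 lay above its glial interval.

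The genes lie on 5 chromosomes in GRCm38 (GENCODE vM21). Bdnf spans chromosome 2:109674700-109727007 on the plus strand, Ntf3 chromosome 6:126101412-126166910 on the minus strand, and Ntrk2 chromosome 13:58806569-59133970 on the plus strand. Ntrk3 spans chromosome 7:78175959-78738012 on the minus strand, Sort1 chromosome 3:108284082-108361511 on the plus strand, and Sh2b1 chromosome 7:126466994-126475424 on the minus strand. Counted antisense genes overlap 4 of them, and reads of the overlap cannot be assigned where strand is not given. These had 711 UMIs (Gm47423) and 862 (4930415C11Rik) in Ntrk2, 97 (Gm9885) and 10 (4921513I08Rik) in Ntrk3, 15 (Gm45346) in Bdnf and 9 (Gm12523) in Sort1.

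Among the ligands, Bdnf was highest in Qrfpr/Sim2 and Trh neurons and lowest in Avp neurons. In Qrfpr/Sim2 neurons it was 73.3 CPM in nuclei labelled Ctrl, 157 in those labelled KD and 55.5 in those labelled Q153R. All 3 values lay above the level of neurons of no class in any pool (38.3, 34.4 and 37.3 CPM), without an interval for the single pools. Together they gave 103 CPM (80.2 to 130), 2.87 times the 35.8 CPM of other neurons (2.22 to 3.65). The size of that ratio moved with the nuclei used. It was 1.96 in nuclei labelled Ctrl, 4.85 in KD and 1.49 in Q153R, 1.80 under stricter class minimums and 1.51 under looser ones. One random draw of thinned counts gave 1.66, while the mean over draws gives 2.80. The KD value rested on 43 UMIs in 34 nuclei, of which 1 nucleus held 9. The Ctrl value rested on 20 UMIs and the Q153R value on only 8, too few to give that pool weight by itself.

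Trh neurons, which make thyrotropin-releasing hormone, had Bdnf at 107, 68.8 and 87.3 CPM in the nuclei labelled Ctrl, KD and Q153R. The level over the pools was 92.3 CPM (78.9 to 107), 2.75 times that of other neurons (2.32 to 3.25), and every pool of Trh neurons lay above every pool of neurons of no class. The order of Qrfpr/Sim2 and Trh neurons is not set by these counts, since their ratio was 1.11 (0.831 to 1.48). The 37 neurons that met the class rule of Trh and of Qrfpr/Sim2 together, kept out of both classes, had the most Bdnf of any group, 171 CPM (125 to 228).

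Bdnf in Crh neurons was 25.2, 38.9 and 4.00 CPM in nuclei labelled Ctrl, KD and Q153R, or 23.1 CPM in all (14.1 to 35.7). It rested on 20 UMIs, 8 of them in 1 nucleus labelled KD, and in that pool alone the ratio to other neurons turned to 1.07 from 0.610. Below it came Oxt neurons with 11.9 CPM, Sst neurons with 7.84, GABAergic neurons with 7.48 and Avp neurons with 5.20 (1.91 to 11.3). The last 4 classes were not separated from each neighbour in this order, nor Crh from Oxt. The vasopressin neurons of the Avp class had 2.55, 2.58 and 10.7 CPM by pool, from 6 UMIs in 204 nuclei, 0.134 times the level of other neurons. Glial nuclei had 1 Bdnf UMI (3.65 CPM). Ntf3 had 5 of its 8 UMIs in neurons of no class and 1 each in Crh, Trh and Oxt neurons. Its level was under 6.44 CPM in each of these classes by the upper bound of the interval, and no class can be ranked for it.

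**Figure D1:**
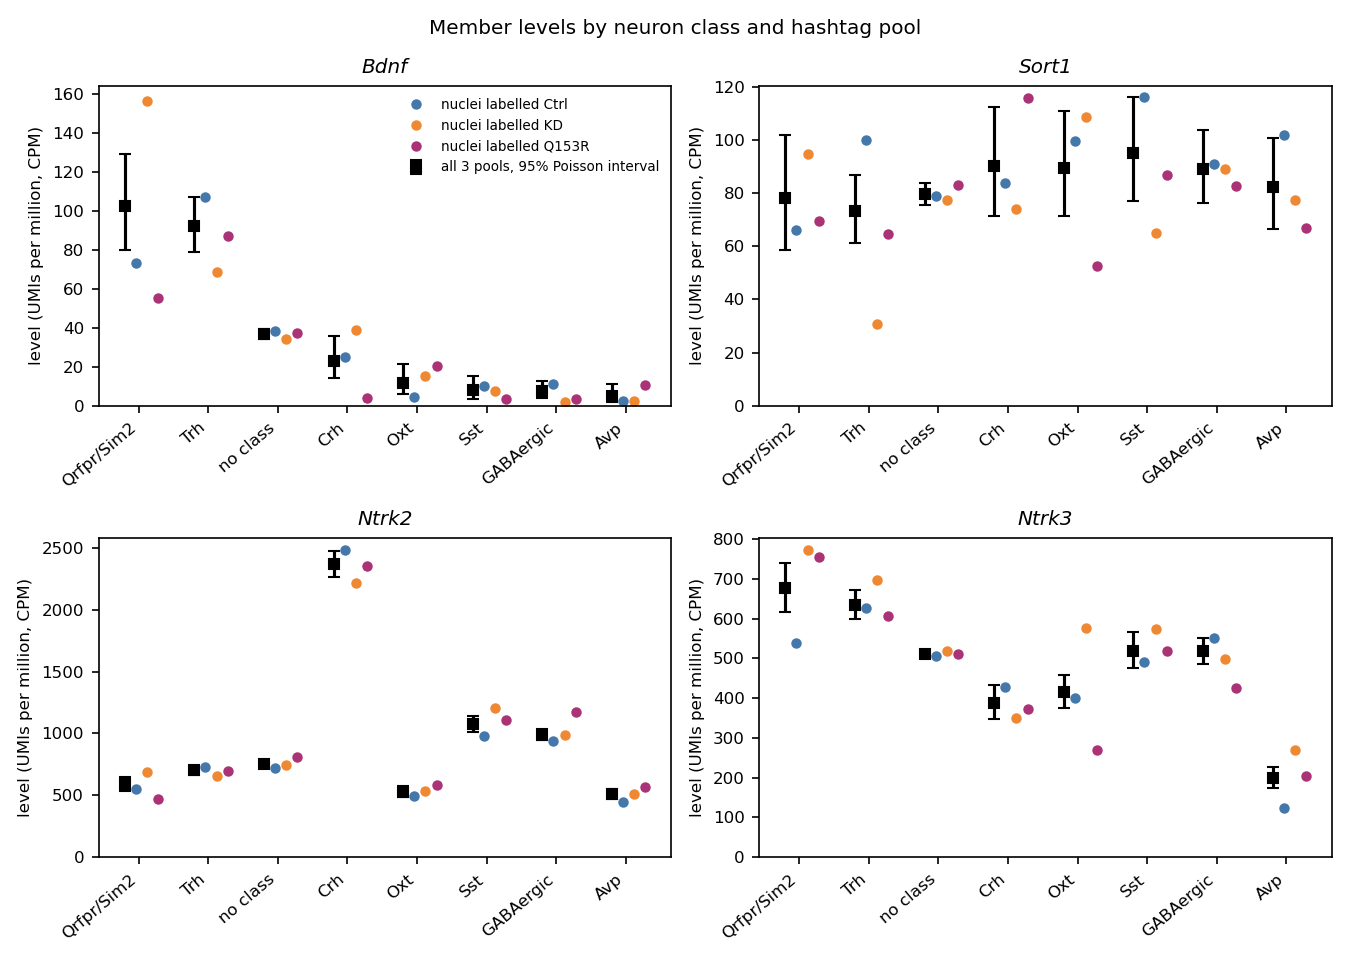
Levels of Bdnf, Sort1, Ntrk2 and Ntrk3 in CPM (y axes, from 0) by neuron class (x axes), with black squares and bars for all pools and their 95% Poisson interval and coloured points for the nuclei labelled Ctrl, KD and Q153R. Bdnf is highest in Qrfpr/Sim2 and Trh neurons (103 and 92.3 CPM), Ntrk2 in Crh neurons (2365 CPM), Ntrk3 is lowest in Avp neurons (199 CPM), and Sort1 over all pools lies between 73.2 and 95.1 CPM, with single pools from 30.6 CPM (Trh, labelled KD) to 116 CPM (Sst, labelled Ctrl).

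Among the receptors, Ntrk2 was highest in the Crh class. Crh neurons, which make corticotropin-releasing hormone, had 2481, 2214 and 2355 CPM in the nuclei labelled Ctrl, KD and Q153R, and the highest value of any other class in a pool was 1209 CPM, in Sst neurons labelled KD. Over the pools the level was 2365 CPM (2264 to 2470), 3.08 times that of other neurons (2.94 to 3.22). Sst neurons followed with 1075 CPM, GABAergic neurons with 989, neurons of no class with 757, Trh neurons with 701, Qrfpr/Sim2 neurons with 590, Oxt neurons with 529 and Avp neurons with 507. Only the last 3 were not separated from their neighbours, with 1.11 (0.975 to 1.27) between Qrfpr/Sim2 and Oxt and 1.04 (0.924 to 1.18) between Oxt and Avp. The classes with most Bdnf were thus in the lower part of the Ntrk2 order. Glial nuclei had 1467 CPM (1327 to 1618), and a gene count does not separate the TrkB form without a kinase domain, which astrocytes are known to make, from the full-length receptor.

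Ntrk3 was ordered otherwise. Qrfpr/Sim2 neurons had 539, 772 and 756 CPM in nuclei labelled Ctrl, KD and Q153R (677 CPM in all, 617 to 741) and Trh neurons 627, 696 and 606 CPM (634 in all, 599 to 672). These 2 classes were not separated (1.07, 0.956 to 1.19), but both stood above the middle group of Sst, GABAergic and no-class neurons at 520, 517 and 511 CPM. Oxt neurons had 415 CPM and Crh neurons 388. Avp neurons were lowest in every pool, with 125, 270 and 204 CPM, 199 CPM over the pools (174 to 227) and 0.384 times the level of other neurons. Between the ends of the order the ratio was 3.39 (2.89 to 3.99), less than the 4.67 (4.25 to 5.12) for Ntrk2 and the 19.7 (8.63 to 55.6) for Bdnf.

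Sort1 was past 1.5-fold in no class, and Sh2b1 had too few UMIs to rank. Sort1, the sorting receptor of proBDNF, ran from 73.2 CPM in Trh neurons to 95.1 in Sst neurons, and even these ends were not separated (1.30, 0.991 to 1.70). Sh2b1 ran from 2.31 CPM in Crh neurons, on 2 UMIs, to 11.8 CPM in Sst neurons, on 12. That pair of ends was separated only loosely (5.09, 1.13 to 46.8), and no neighbours in the order were.

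Set against all genes, the members' ratios were not rare in most classes. Of 10490 genes with at least 200 UMIs, 43.8% lay past 1.5-fold in Crh neurons, where 3 of the 5 members tested did (Bdnf, Ntrk2 and Sh2b1). The share was 28.1% in Avp neurons, where 3 of 5 did (Bdnf, Ntrk2 and Ntrk3), and 26.4% in Oxt neurons, where 2 did (Bdnf and Ntrk2). It was 23% in Sst neurons and 20.9% in Qrfpr/Sim2 neurons, with 2 members each (Bdnf and Sh2b1). Sh2b1 counted here on only 2 UMIs in Crh, 12 in Sst and 3 in Qrfpr/Sim2 neurons, and each interval of its ratio held 1. In Trh neurons (8.73%) and GABAergic neurons (9.01%) Bdnf was the 1 member past the fold, higher in the first and lower in the second. Ntf3 did not reach 200 UMIs. Over the 3 pools together Bdnf was thus past 1.5-fold in all 7 classes, and Sort1 in none. How many of all genes pass in every class was not counted. In Crh neurons the Bdnf ratio was 0.610 (0.371 to 0.946) on 20 UMIs, 8 of them in 1 nucleus. It did not pass there in nuclei labelled KD alone, nor in Qrfpr/Sim2 neurons labelled Q153R alone.

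Genes of the pathway were read by class as lists. A count in Crh neurons stands beside the 43.8% of all genes past 1.5-fold there (1005 higher and 3594 lower of 10490). Counts in the other classes stand beside 28.1% in Avp, 26.4% in Oxt, 23% in Sst, 20.9% in Qrfpr/Sim2 and 8.73% in Trh neurons. Of the 11 genes with measured levels among the activity and BDNF response genes, 10 were higher past 1.5-fold in Crh neurons (median log2 ratio 1.99, against -0.29 over all genes). Examples were Nptx2, a secreted pentraxin of synapses, at 8.16 times other neurons (5.93 to 11.1), Fosb at 6.89 (4.71 to 9.84), Junb at 5.21 and Nr4a1 at 5.14, all immediate transcription factors of stimulated neurons but for the first. In Oxt and Avp neurons 10 of the 11 were lower (medians -2.27 and -2.17), in Trh neurons 6 (-0.62), and in Qrfpr/Sim2 neurons 6 with 1 higher (-0.79). The classes with most Bdnf were therefore not those with most activity genes. Npas4, an activity-dependent factor that acts on Bdnf promoters, was 3.91 times higher in Crh neurons (3.16 to 4.80), 0.424 in Qrfpr/Sim2 neurons and 0.275 in Avp neurons. It was among 6 higher and 3 lower of 21 measured regulators of Bdnf transcription in Crh neurons, with Bhlhe40 at 2.68, Arnt2, a partner of Npas4, at 2.60, Camk2d at 2.11 and Camk2a at 0.486. Camk4, a kinase of CREB, was 1.60 times other neurons in Trh neurons (1.45 to 1.77) and 0.224 in Crh neurons (0.151 to 0.320).

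The genes that process and release BDNF were higher in Crh neurons in 4 of 11 cases and lower in 1, a share past 1.5-fold near that of all genes. Pcsk1, the prohormone convertase of secretory granules, was at 530 against 132 CPM, a ratio of 4.02 (3.64 to 4.44). Scg2, a granin, was at 2.99 (2.74 to 3.26), Cpe, a carboxypeptidase that also sorts proBDNF, at 2.31, Furin at 1.73, and Pcsk5 lower at 0.223. In Trh neurons 1 of 11 passed, Pcsk2 at 1.63 (1.56 to 1.70). Of the 4 relatives of sortilin (Sorl1, Sorcs1, Sorcs2 and Sorcs3), 3 were lower in Crh neurons and 3 in Avp neurons, where Sorcs2 was at 0.164 (0.0871 to 0.281), Sorl1 at 0.281 and Sorcs1 at 0.289. Sorcs1 was higher in Qrfpr/Sim2 neurons, at 1.74 (1.62 to 1.88), and in Sst neurons, at 3.13 (2.98 to 3.28). These relatives thus varied between classes where Sort1 did not pass the fold.

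Among 30 measured Trk adaptors and signalling genes 5 were higher and 4 lower in Crh neurons, a smaller share than the 43.8% of all genes, with Cbl, a ubiquitin ligase of receptor kinases, at 2.69 (2.37 to 3.05) and Shc3, an adaptor of TrkB, at 0.503. In Avp neurons 1 was higher and 8 lower, a share near the 28.1% of all genes past 1.5-fold there. Shc3 was at 0.288 (0.184 to 0.429) and Shc2 at 2.02. In Qrfpr/Sim2 neurons 3 were higher and 2 lower, beside 20.9% of all genes, with Frs3 at 2.11 (1.19 to 3.49). Of the 10 genes of the SH2B, Jak and Irs group, 4 were higher in Crh neurons (Irs2 at 2.87, Ptpn1 at 2.09, Jak2 at 1.94 and Stat3 at 1.74) and 2 lower (Sh2b2 at 0.243 and Irs1 at 0.544). Irs4, a substrate of the insulin receptor with a hypothalamic role, was 2.72 times other neurons in Qrfpr/Sim2 neurons (1.82 to 3.95) and 1.61 in Trh neurons (1.16 to 2.18). Of 12 measured synaptic partners of Trk receptors 7 were lower in Sst neurons, where 23% of all genes lay past 1.5-fold in either direction. Ptprd was among them at 0.571 (0.546 to 0.596), while it was 1.88 times other neurons in Avp neurons.

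Between the pools, none of the 5 members with at least 200 UMIs passed 1.5-fold. The comparisons took neurons outside the GABAergic class, which made up 8.44%, 5.79% and 3.58% of the pools labelled Ctrl, KD and Q153R. Past 1.5-fold were 1.38% of 10490 genes for KD to Ctrl, 1.33% for Q153R to Ctrl and 2.01% for Q153R to KD. Members among them were 0 of 5 each time. Bdnf was at 41.1, 38.6 and 38.8 CPM in the nuclei labelled Ctrl, KD and Q153R. Its ratios were 0.938 for KD to Ctrl (0.807 to 1.09), 0.944 for Q153R to Ctrl (0.811 to 1.10) and 1.01 for Q153R to KD (0.855 to 1.19), intervals that leave out a 1.5-fold difference in either direction. Ntf3 had 4, 3 and 1 UMIs, Sort1 83.8, 76.3 and 80.5 CPM and Sh2b1 7.25, 8.83 and 7.32 CPM, with every interval of a ratio holding 1.

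Ntrk2 was at 788, 795 and 844 CPM in the nuclei labelled Ctrl, KD and Q153R. The ratio of Q153R to Ctrl was 1.07 (1.04 to 1.11), 1.09 within neuron classes, 1.10 (1.05 to 1.15) among nuclei with Xist and 1.29 (1.19 to 1.41) among nuclei with Y-linked UMIs. The share of neurons with a UMI of an activity gene moved with it, 15.5% in nuclei labelled Ctrl, 17.4% in KD and 23.3% in Q153R. In thinned neurons without any such UMI the ratio of Q153R to Ctrl was 0.917 (0.858 to 0.979), on 641 and 699 CPM. Over 10 further thinning draws it was 0.891 to 0.989 there, with only 6 of 10 intervals below 1. In all thinned neurons it was 1.05 to 1.11, with 9 of 10 intervals above 1. The split used genes chosen after their values beside Ntrk2 were seen, and the part of activity genes in the pool difference was not tested. Ntrk3 was at 494, 524 and 498 CPM, with KD to Ctrl at 1.06 (1.02 to 1.11) and Q153R to KD at 0.952 (0.911 to 0.995).

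**Figure D2:**
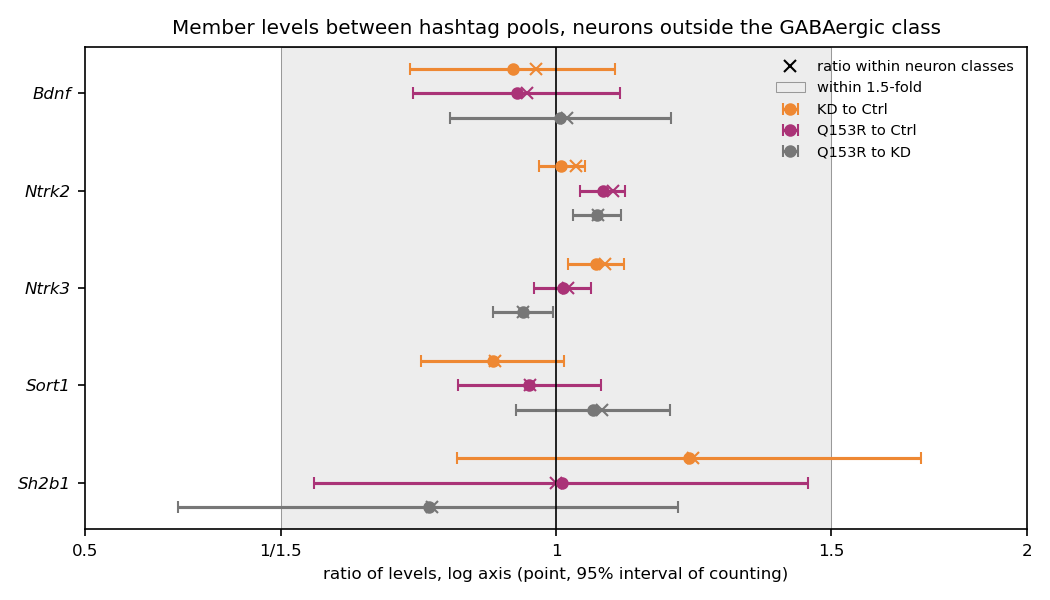
Ratios of the levels of 5 members, Ntf3 left out for its 8 UMIs, between pools (x axis, log scale) for neurons outside the GABAergic class, with 95% counting intervals, crosses for the ratio within neuron classes and grey for less than 1.5-fold. All points lie inside the grey band, and the intervals of Ntrk2 for Q153R to Ctrl (1.04 to 1.11) and Q153R to KD (1.03 to 1.10) and of Ntrk3 for KD to Ctrl (1.02 to 1.11) lie above 1, that of Ntrk3 for Q153R to KD (0.911 to 0.995) below.

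Within neuron classes and neurons of no class, 25 of 144 pool ratios had intervals that left out 1. By gene they were 8 each for Ntrk2 and Ntrk3, 5 for Sort1 and 4 for Bdnf. Among them was Ntrk2 in neurons of no class, at 1.12 for Q153R to Ctrl and 1.09 for Q153R to KD. The same share over all genes was not counted, so the 25 cannot be called many or few. The ratios of a class share pools, and the 144 include Ntf3 and Sh2b1, mostly on few or no UMIs. In Avp neurons Ntrk3 was 2.17 times higher in nuclei labelled KD (1.53 to 3.10) and 1.63 times in those labelled Q153R (1.12 to 2.39) than in Ctrl. In Oxt neurons the 2 pools went apart, at 1.44 (1.15 to 1.81) and 0.676 (0.501 to 0.902), and the ratio of Oxt to other neurons turned from 0.816 to 1.11 in nuclei labelled KD alone. Bdnf was 2.14 times higher in nuclei labelled KD than Ctrl in Qrfpr/Sim2 neurons (1.23 to 3.83) but 0.642 in Trh neurons (0.401 to 0.998). Sort1 in Trh neurons was at 99.9, 30.6 and 64.6 CPM, 0.306 for KD to Ctrl (0.152 to 0.564) on 12 against 82 UMIs. The named classes hold 24 to 166 nuclei in a pool and the neurons of no class more. Mouse-to-mouse spread within a pool is not in these intervals.

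In the pathway lists the pools differed in few genes. Activity and BDNF response genes were higher in nuclei labelled Q153R than Ctrl in 4 of 11 cases and lower in none, with a median log2 ratio of 0.42 against -0.02 over all genes. They were Nr4a3 at 2.48 (2.04 to 3.02), Fos at 2.03 (1.59 to 2.61), Fosb at 1.84 and Egr1 at 1.82. In nuclei labelled KD, Nr4a3 alone of these passed, at 1.75 (1.42 to 2.15), and the median was 0.21 against -0.05. Both comparisons share the nuclei labelled Ctrl. For Q153R to Ctrl, Npas4 was at 1.58 and Plat, a plasminogen activator, at 0.663 (0.492 to 0.886). For KD to Ctrl, Gab1, an adaptor of receptor kinases, was at 0.550 and Lepr at 0.542. Rtn4r, a receptor of myelin inhibitors, was at 1.59 (1.24 to 2.05) for KD to Ctrl. For Q153R to KD, Fos was at 1.56, Fosb at 1.56, Npas4 at 1.51 and Sorl1 at 0.667 (0.557 to 0.796). Nuclei labelled Q153R, highest in these genes, were also the shallowest and had the fewest with Xist, and the part of depth and sex in the difference was not tested.

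Co-detection was read in nuclei thinned to 2338 UMIs, since deep nuclei hold both of any pair more often. Thinning draws UMIs at random, so the first draw is given with its interval and 10 further draws with their range. Of 15 pairs of members 1 interval left out 1. Ntrk2 and Ntrk3 were found together less often than independence gives, with an odds ratio of 0.814 (0.710 to 0.933). Over the 10 draws it ran from 0.804 to 0.9403, with 7 of 10 intervals below 1, and without thinning it turned to 1.72. By pool the first draw gave 0.847, 0.715 and 0.868 in nuclei labelled Ctrl, KD and Q153R.

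Bdnf and Ntrk2 showed no association beyond error. Of 291 thinned neurons with Bdnf 72.2% held Ntrk2 (66.6 to 77.2), the odds ratio was 1.08 (0.822 to 1.42), and 10 draws spanned 0.877 to 1.11. Most neurons with a Bdnf UMI thus also held the gene of its receptor, as did most without. Bdnf and Ntrk3 gave 1.26 (0.973 to 1.63) in the first draw but 1.18 to 1.77 in the others, where 8 of 10 intervals lay above 1. Across 24 groups of class and pool, the 2 genes' levels on the log2(CPM + 5) scale had r = 0.562, as a description of groups that share a library.

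Bdnf was found with Sim2, a transcription factor, at an odds ratio of 4.75 (2.43 to 8.80). The ratio was 3.81, 5.12 and 6.24 in the nuclei labelled Ctrl, KD and Q153R, and 2.61 to 6.68 over the 10 draws, all of them with intervals above 1. With Trh the odds ratio was 1.91 (1.31 to 2.71) and 1.87 to 3.35 over draws, but 1.24 (0.776 to 1.99) within classes. With Gad2, which makes GABA, it was 0.279 and 0.196 to 0.347 over draws. With Otp it was 0.568 (0.367 to 0.848) in the first draw, but the draws ran from 0.589 to 1.02 and only 1 of 10 intervals left out 1. With Sim1 it was 1.13. For Mc4r 1 neuron held both genes.

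**Figure D3:**
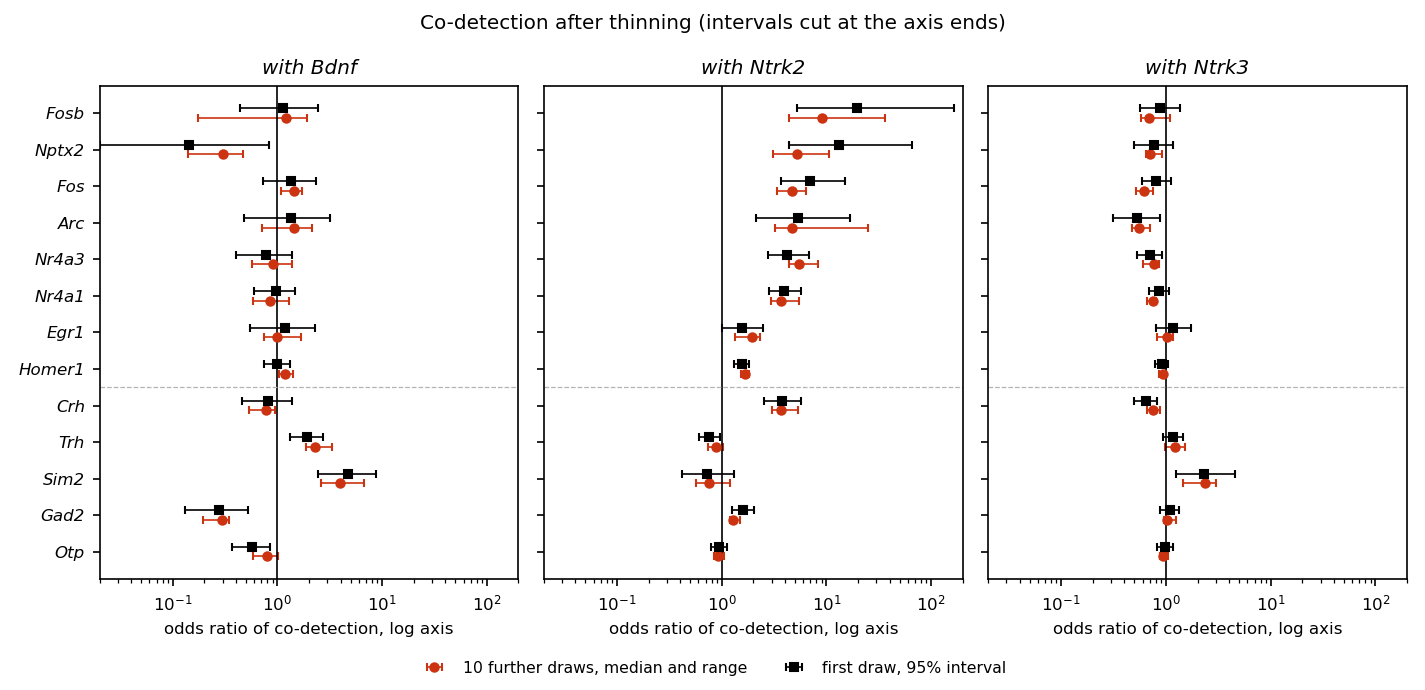
Odds ratios of co-detection (x axes, log scale) of Bdnf, Ntrk2 and Ntrk3 with activity genes (above the dashed line) and marker genes (below it) in neurons thinned to 2338 UMIs, black squares for the first draw with its 95% interval and red points for the median and range of 10 further draws. With Ntrk2 all 8 activity genes lie above 1, but they were chosen after their values beside Ntrk2 were seen. With Bdnf Sim2 stands out at 4.75.

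Ntrk2 was detected together with activity genes. The 8 genes shown were chosen after their values beside Ntrk2 were seen, so a count of them above 1 is no separate support. All 8 had odds ratios with Ntrk2 above 1 in the first draw. Fosb gave 19.6 (5.25 to 164), Nptx2 13.2, Fos 7.02 (3.70 to 14.96), Arc, a cytoskeletal protein of active synapses, 5.30, Nr4a3 4.24, Nr4a1 3.97, Egr1 1.57 and Homer1 1.56. Over the further draws the values moved, to 4.35 to 36.0 for Fosb, 3.10 to 10.5 for Nptx2, 3.37 to 6.37 for Fos and 4.43 to 8.30 for Nr4a3. In these draws 10 of 10 intervals lay above 1 for every gene but Egr1 (8 of 10). Within classes Fosb was at 17.9 and Fos at 6.37. For Egr1 the value within classes was 1.46 (0.944 to 2.25), and in nuclei labelled Ctrl alone it was 0.767.

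None of the 8 odds ratios with Bdnf had an interval above 1 in the first draw, and 1, that of Nptx2, lay below (0.144). Over 10 draws Nptx2 ran from 0.140 to 0.464 with 2 intervals below 1. Homer1 had 1 interval above 1 and Fos, at 1.07 to 1.70, none. Ntrk3 lay below 1 with Arc at 0.529 and Nr4a3 at 0.697 in the first draw, and in 6 and 4 of the 10 further ones. Over these draws Ntrk3 with Fos was 0.518 to 0.744 (9 of 10 intervals below 1) and with Nr4a1 0.656 to 0.811 (8 of 10). Sort1 was above 1 with Nr4a3 (1.67) and Homer1 (1.29) in the first draw, but in 4 and 0 of the further draws.

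The activity genes were chosen after their values beside Ntrk2 were seen, so a rise with their number is not independent of that choice. The level of Ntrk2 stepped up with the number of these genes, Homer1 left out, that had a UMI in the nucleus. It was 685 CPM (668 to 703) in 3544 neurons with 0 of 7, 1624 CPM in 557 neurons with 1, 2464 CPM in 175 with 2 and 2561 CPM (2344 to 2794) in 85 with 3 or more. The ratios to neurons with 0 were 2.37, 3.595 and 3.74, and 10 further draws gave 2241 to 2503 CPM for 2 genes and 2178 to 2634 for 3 or more. The last step is within error. In the nuclei labelled Ctrl the levels were 711, 1544, 2661 and 2994 CPM, in those labelled KD 684, 1778, 2272 and 2021, and in those labelled Q153R 651, 1585, 2413 and 2775. In each pool the value for 2 genes was above that for 0 by more than counting error, with 17 nuclei behind the last value of Ctrl.

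The same levels, by the same chosen genes, were read outside Crh neurons. Activity genes had a UMI in 67.9% of Crh neurons, 20.6% of GABAergic, 18.3% of Sst and 8.60% of Trh neurons, and in 4.30% to 4.95% of Qrfpr/Sim2, Oxt and Avp neurons. Outside the Crh class and without a Crh UMI Ntrk2 was at 655, 1395, 2349 and 2402 CPM. Neurons of no class had 634, 1523, 2367 and 2251 CPM and GABAergic neurons 801, 1760, 2310 and 3849. In Crh neurons the level was high without any activity gene, at 2292 CPM, and 3086 CPM with 3 or more. The step was small there.

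Bdnf, Ntrk3 and Sort1 were read in the same nuclei. Bdnf was at 35.7, 35.3, 34.2 and 70.5 CPM for 0, 1, 2 and 3 or more genes, the last on 14 UMIs (38.5 to 118) and 32.9 to 72.2 over draws. For 1 gene the draws ran from 32.0 to 49.7 CPM and for 2 from 26.6 to 50.2. Ntrk3 was at 510, 432, 367 and 403 CPM, lower with any activity gene. Sort1 was at 78.7, 101, 120 and 65.4 CPM, with a lowest value of 75.1 for 2 genes over the draws.

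**Figure D4:**
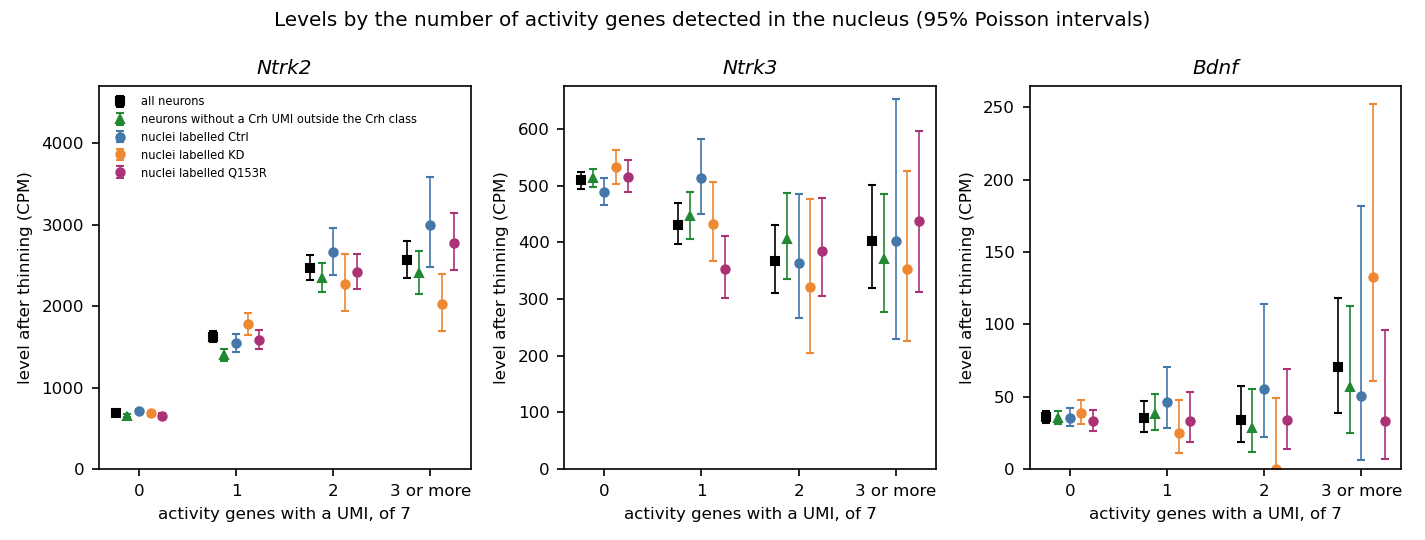
Levels of Ntrk2, Ntrk3 and Bdnf in CPM after thinning (y axes, from 0) by the number of 7 activity genes with a UMI in the nucleus (x axes), with 95% Poisson intervals, for all neurons, for neurons outside the Crh class without a Crh UMI, and for each pool. In the first draw Ntrk2 goes from 685 to 2561 CPM in all neurons and from 655 to 2402 CPM without Crh. The activity genes were chosen after their values beside Ntrk2 were seen. Bdnf is near 35 CPM up to 2 genes in that draw, but 26.6 to 50.2 CPM for 2 genes over 10 further draws.

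Genes whose levels were most like each member's were ranked by Pearson's r of log2(CPM + 5) over 24 groups of class and pool, among 4720 genes with at least 1000 UMIs. All groups share 1 library, and genes of a group share its depth. For Bdnf they were Pdzrn4 (r = 0.825), Rgs7 (0.806), Col18a1 (0.805), Gm12239 (0.786) and Tmem108 (0.783). For Ntrk2 they were Pde10a (0.969), Sik3 (0.967), Lncpint (0.954), Rasal2 (0.952) and Btg2 (0.947). For Ntrk3 they included Sez6l (0.906), Dmd (0.890), Gm45321 (0.887) and Prickle2 (0.886). Sort1 had Sf1 and Mob1b at 0.621 as its nearest, followed by Ski (0.610), Stat3 (0.576) and Mlxip (0.566).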

How the data were processed

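The authors deposited UMI counts as a matrix of genes and 3 hashtags by barcodes, made with Cell Ranger 6.0.0 on mm10 per the submitters' processing notes (the matrix header names 7.0.0). For its annotation, strand and intron setting the sources used here give nothing. The series has 2 libraries, and the 1 with a file was used. Gene coordinates came from GENCODE vM21 (31011 of 31053 gene IDs found), promoter windows from RefSeq; no window was held for Ntrk3 and Sort1.

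Barcodes with 500 genes or more, mitochondrial UMIs below 5% and exactly 1 tag (Ctrl at 105, KD at 61 and Q153R at 37 counts or more) were kept. Classes needed, per nucleus, 2 UMIs and 150 CPM of Qrfpr plus Sim2, Crh or Trh, 5 and 1000 of Sst, 10 and 3000 of Oxt or Avp, or 3 and 300 of the GABA genes. Glial nuclei needed 5 UMIs and 2000 CPM of glial genes, above the neuronal genes, and every other nucleus was called a neuron. Levels are summed UMIs over summed library sizes (CPM) with exact Poisson intervals. Ratios have exact conditional binomial intervals, shares Clopper-Pearson intervals, and odds ratios exact conditional ones. Values within classes or pools are Mantel-Haenszel. Thinning drew 2338 UMIs per nucleus, the 10th percentile. A ratio at or past 1.5-fold was called for genes with at least 200 UMIs. Scripts in Python 3.11.15 (numpy 2.4.6, scipy 1.17.1) were tested on simulated data.

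All 6 members are named, and the list genes printed for a comparison are among its 6 largest ratios past 1.5-fold per list, not all of which are printed; 1 gene with a pattern like that of Ntrk3 is not reported here. Members, lists and classes were chosen with earlier results of these data known. The 8 activity genes, the counts of them per nucleus, the Trh with Qrfpr/Sim2 group, the values within pools and activity levels, and the further thinning draws were added after values were seen. Alternatives covered hashtags, doublets, class minimums, depth, pools, sex-linked UMIs and count minimums.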

Additional observations from a re-analysis of the deposited data

How the results depend on the processing

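Of 797 values under alternative settings, 656 stayed within the main value's counting interval or within 1.5 times the main count, 138 moved beyond it and 3 changed direction. The cause was not tested. The Bdnf ratio of Qrfpr/Sim2 to other neurons (2.87) was 1.795 with stricter and 1.51 with looser class minimums, 1.657 in 1 thinning draw against 2.80 as the mean over draws, and 1.96, 4.846 and 1.491 in nuclei labelled Ctrl, KD and Q153R alone. The Bdnf ratio of Trh neurons (2.75) was 2.20 with any number of hashtags, 3.339 without nuclei next to multiple-tag nuclei (583 nuclei left out), 2.026 with looser minimums, 3.272 in Ctrl and 1.98 in KD alone. The Ntrk2 ratio of Crh neurons (3.08) was 2.677 with any number of hashtags, 2.46 with looser minimums, and 3.322, 2.906 and 2.918 in Ctrl, KD and Q153R alone. With 2 activity genes Ntrk2 was 3.595 times higher in all neurons and 3.321 in nuclei labelled KD. Members past 1.5-fold numbered 14 over the classes and 9 with any number of hashtags. Between pools they numbered 0, and 1 in nuclei with Y-linked UMIs. Pathway genes past 1.5-fold between pools numbered 14, and 23 with a minimum of 50 UMIs. Of 15 member pairs 1 interval left out 1, 6 without thinning, 2 at the 25th percentile of depth and 2 with any number of hashtags.

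In nuclei labelled KD alone Bdnf in Crh neurons turned to 1.073 and Ntrk3 in Oxt neurons to 1.11, and without thinning Ntrk2 with Ntrk3 turned to 1.723. No paired analysis was possible because 1 library pools all mice and each tag marks 1 pool; for the same reason no replicate could be left out. Bdnf in Oxt, Sst, Avp and GABAergic neurons rests on 6 to 14 UMIs a class, and Ntf3 on 8 in all, so that differences among these were not detectable at this depth.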

Other observations

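Neurons of no class, the largest group, also held Bdnf in a part of their nuclei. After thinning, 209 of them had a Bdnf UMI and 2716 had none, and a ranking of all genes between these sets was made after the member values were seen, as a description without a test. Highest in the nuclei with Bdnf was Angpt1, a ligand of the endothelial receptor Tie2, at 223 against 101 CPM, a ratio of 2.22 (1.95 to 2.51). It was followed by Spag16 at 2.16 (1.64 to 2.81), Esr1, which encodes oestrogen receptor alpha, at 1.83 (1.44 to 2.29), Penk, the precursor of enkephalins, at 1.70 (1.35 to 2.13) and Pde1c at 1.70 (1.43 to 2.02). Ebf1, a transcription factor, was at 457 against 282 CPM, a ratio of 1.62 (1.49 to 1.76).

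Lowest beside Bdnf was Plod2, a lysyl hydroxylase, at 0.287 (0.152 to 0.494). Zeb2 was at 0.328 (0.218 to 0.473), Srxn1 at 0.348, Btg2, an immediate early gene, at 0.383 (0.233 to 0.597), Gad2 at 0.395 and Agtr1a, which encodes an angiotensin receptor, at 0.488 (0.351 to 0.662). The 209 nuclei pool all 3 tags, and the ranking was made in 1 thinning draw.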
